A study of Mus musculus with 6 samples.

Results

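Transcription factors that mark the steps from cortical progenitor to layered neuron were followed in mouse neocortical cells that had been given extra Insm1, a zinc-finger repressor of neural progenitors. The set has 9 genes (Eomes, Tbr1, Fezf2, Bcl11a, Bcl11b, Ldb2, Cux1, Cux2 and Pou3f2), chosen by symbol from the 22001 genes of the count table, and all 9 had enough counts to be tested among 13560 genes. Cells were electroporated in utero at E13.5 and dissected at E14.5, after 24 h, and the mCherry+ cells were sorted. The 3 control libraries came from embryos given a plasmid that encodes mCherry alone, and the 3 Insm1 libraries from embryos given a plasmid that encodes Insm1 and mCherry together. Electroporation reaches the cells at the ventricle, so each library mixes progenitors with the daughters they made in that time, and the labels name neither the promoter of the plasmids nor the strain or any pooling of embryos. The labels do not say whether the libraries of a group came from separate litters, so p-values cover only how far the libraries spread, which may be technical.

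Neurons of the cortex are born from apical radial glia, mostly by way of basal progenitors that switch on Eomes, a T-box factor also called Tbr2. As the daughters of these cells become neurons they lose Eomes and gain its relative Tbr1. Deep-layer neurons that project below the cortex use Fezf2 and Bcl11b, also called Ctip2, whereas the cut-homeobox factors Cux1 and Cux2 and the POU factor Pou3f2, also called Brn2, are known for upper-layer neurons and their progenitors. Ldb2 carries no DNA-binding domain of its own and bridges LIM-domain proteins on DNA.

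Of the 9 genes, Ldb2 fell and Bcl11a and Bcl11b rose. The fall of Ldb2 was 4.88-fold, and the rises were 1.18-fold for Bcl11a and 1.19-fold for Bcl11b. The other 6, Eomes and Tbr1 among them, did not pass the test. In edgeR's quasi-likelihood test with Benjamini-Hochberg adjustment over all tested genes, 2 of 9 were called higher, where 1.23% of all genes were, and 1 of 9 was called lower, where 2.12% of all genes were (3.35% in either direction). DESeq2 called 4 of 9 higher and 1 of 9 lower, where it called 3.18% and 4.42% of all genes (7.6% in either direction). With the replicate number as a block in edgeR none of 9 was called higher and 1 of 9, Ldb2, lower, where 0.848% and 1.59% of all genes were (2.44% in either direction). Control and Insm1 libraries were fully separate for 4 of the 9 genes (Tbr1, Bcl11a, Bcl11b and Ldb2), against 22.2% of all tested genes. The median log2 fold change of the 9 was -0.046, against -0.0086 over all tested genes, with 4 of the 9 positive, where 48.1% of all genes were. The 9 genes were chosen with earlier results of these data known, so these shares cannot test whether the set changed more than other genes. In bulk libraries fewer cells of a type and less RNA per cell cannot be told apart, for these genes or for the markers set beside them.

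**Figure D1:**
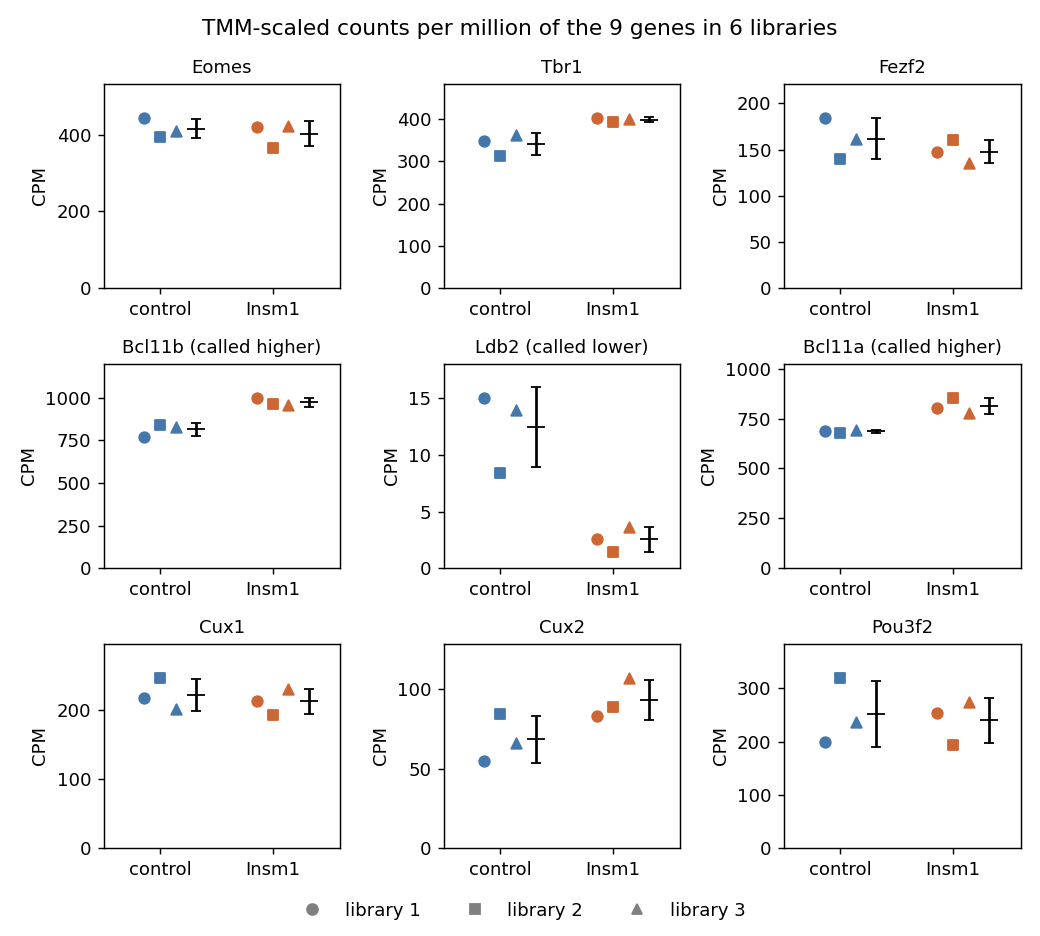
Normalised read counts (CPM, scaled by TMM; linear axes from 0) of the 9 genes in each of the 6 libraries, with control libraries in blue and Insm1 libraries in orange, library numbers as symbols, and the mean with its SD (n = 3) beside them. Ldb2 lies between 8.41 and 15.1 CPM in the controls and between 1.43 and 3.65 CPM with Insm1, while the groups overlap for Eomes, Fezf2, Cux1, Cux2 and Pou3f2.

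The libraries held 30017645 to 31645135 counts each. Insm1 itself was at 222 to 371 CPM in the controls and 1436 to 2173 CPM in the Insm1 libraries, as the labels say, 5.61-fold higher (edgeR adjusted p = 0.0122). Counts are per gene, so RNA from the plasmid and from the chromosome cannot be told apart. Of the markers of the labelled tissue, 9 of 9 for apical progenitors and 9 of 9 for neurons had enough counts to be tested. Summed over each list, apical progenitor markers were at 3230 to 3752 CPM in the controls and 2337 to 2915 CPM with Insm1, and neuron markers at 6029 to 6392 and 6810 to 7571 CPM. Control 2 stood apart from controls 1 and 3. Its summed erythroid markers were at 3133 CPM against 406 and 186 CPM, in the range of the Insm1 libraries (1713 to 3670 CPM), and its Cajal-Retzius markers at 4.87 CPM against 32.6 and 32.1 CPM. Among the 9 genes, control 2 was the lowest control for 5 (Eomes, Tbr1, Fezf2, Bcl11a and Ldb2) and the highest control for 4 (Bcl11b, Cux1, Cux2 and Pou3f2). Within their own groups Insm1 library 3 was lowest for 3 and highest for 5, and control 3 lowest for 1 and highest for 2.

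Eomes, the mark of basal progenitors, was at 444, 394 and 409 CPM in controls 1, 2 and 3 and at 421, 365 and 422 CPM in Insm1 libraries 1, 2 and 3. The ranges overlapped, with 416 ± 25.6 CPM (SD, n = 3) in the controls and 403 ± 32.9 CPM (SD, n = 3) with Insm1. Eomes had a log2 fold change of -0.046 with a 95% interval from -0.21 to 0.12 (edgeR adjusted p = 0.831). With control 1 or Insm1 library 2 left out the estimate was positive, at 0.012 and 0.020.

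The other genes of basal progenitors were mixed. Of 12 in the list 3 rose, none fell and 9 did not pass. The median log2 fold change was 0.066, against -0.0086 over all tested genes, of which 1.23% were called higher and 2.12% lower. This list and those below were chosen with earlier results of these data known. Their counts thus cannot test whether a list changed more than other genes. Nhlh1, a bHLH factor of newborn neurons, rose 1.94-fold (edgeR adjusted p = 0.00525), from 40.9 ± 3.74 to 79.5 ± 9.55 CPM (SD, n = 3). Sstr2, which encodes a receptor for somatostatin, rose 1.505-fold (edgeR adjusted p = 0.0137) and Mfng, which modifies Notch receptors, 1.27-fold (edgeR adjusted p = 0.0337). Nhlh1 was called with each of the 6 libraries left out in turn, Sstr2 in 3 of these fits and Mfng in 1.

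Tbr1, the T-box factor of early-born neurons, was at 348, 313 and 362 CPM in controls 1, 2 and 3 and at 403, 392 and 399.7 CPM in Insm1 libraries 1, 2 and 3. Every Insm1 library lay above every control, and the Insm1 libraries were close together, at 398 ± 5.64 CPM (SD, n = 3) against 341 ± 25.6 CPM (SD, n = 3). The log2 fold change was 0.22, with a 95% interval from 0.079 to 0.37, and did not pass over all genes in edgeR (adjusted p = 0.101). DESeq2 called Tbr1 higher (adjusted p = 0.0251), in a fit that called 3.18% of its genes higher.

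The balance of the T-box pair was read within each library, where it does not depend on scaling. Tbr1 counts were 0.784, 0.793 and 0.884 times the Eomes counts across the controls, and 0.957, 1.07 and 0.946 times across the Insm1 libraries. The groups did not overlap, and the ratio was 1.21-fold higher with Insm1. The exact two-sided permutation test gave p = 0.1, the smallest that 3 libraries against 3 allow, and 0.133 when adjusted over the 4 ratios tested.

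Fezf2, the zinc-finger factor that directs neurons to project below the cortex, was at 185, 139.8 and 161 CPM in controls 1, 2 and 3 and at 147, 161 and 136 CPM in Insm1 libraries 1, 2 and 3. The groups overlapped, with control 1 above all others, and the log2 fold change was -0.13 with a 95% interval from -0.36 to 0.099 (edgeR adjusted p = 0.597).

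Bcl11b, a zinc-finger factor that acts with Fezf2 in these neurons, was at 772, 841 and 829.7 CPM in controls 1, 2 and 3 and at 999.99, 962 and 956 CPM in Insm1 libraries 1, 2 and 3. Bcl11a, its relative, which is made by neurons of deep and upper layers, was at 688, 676 and 692 CPM in controls 1, 2 and 3 and at 804, 855 and 777 CPM in Insm1 libraries 1, 2 and 3. Every Insm1 library lay above every control for both genes. On the log2 scale Bcl11b changed by 0.26 (standard error 0.054; edgeR adjusted p = 0.0307), from 814 ± 36.7 to 973 ± 24.0 CPM (SD, n = 3). Bcl11a changed by 0.24 (standard error 0.054; edgeR adjusted p = 0.0388), from 685 ± 8.70 to 812 ± 39.4 CPM (SD, n = 3). These rises were small, ranking 164 and 166 by fold change among the 167 genes called higher.

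The calls of the Bcl11 pair were near the threshold. Bcl11a lost its call whichever library was left out, with edgeR adjusted p between 0.0589 and 0.122. Bcl11b kept it without control 2 (0.0247) and lost it in the other 5 fits, between 0.0731 and 0.106. The direction was the same in all of these fits for both genes, with log2 fold changes from 0.21 to 0.28 for Bcl11a and from 0.23 to 0.28 for Bcl11b. The ratio of Bcl11b to Bcl11a counts was between 1.12 and 1.24 in the controls and between 1.13 and 1.24 with Insm1. It differed by 0.014 on the log2 scale (exact permutation test, p = 0.8), so no difference between the changes of the pair was detectable. Over the same libraries the summed neuron markers went from 6214 ± 182 to 7258 ± 398 CPM (SD, n = 3), 1.17-fold higher. Of the 9 markers 2 were called higher, the abundant Tubb3 and Neurod6, and none lower, with 3 of 9 log2 fold changes negative and a median of 0.093. The part of these markers in the rise of the Bcl11 pair was not tested.

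Sequence around RefSeq starts (GRCm38.p6) was taken for 8 of the 9 genes, all but Ldb2, from 250 bases before to 50 after the start. For some genes this start lies inside the annotated gene, as for Bcl11a (gene start 24078056) and Fezf2 (minus strand, gene end 12348189). Matches and composition hold for the start used only. The promoters of the pair that rose are shown because the genes moved together, and those of Fezf2 and Cux2 because they hold letters of Insm1's own known motif. The letters CAGGGG, from that motif, and AGGTGT, the core that T-box factors such as Eomes and Tbr1 bind, were searched on both strands, and the motifs share no matched base here. CAGGGG stands in capitals where it was found, starting at -210 from the Cux2 start and at -199 from the Fezf2 start. Among 32851 RefSeq promoters of this length, 24.1% hold CAGGGG and 13.7% hold AGGTGT.
Bcl11a promoter (chr11:24080445-24080744, plus strand): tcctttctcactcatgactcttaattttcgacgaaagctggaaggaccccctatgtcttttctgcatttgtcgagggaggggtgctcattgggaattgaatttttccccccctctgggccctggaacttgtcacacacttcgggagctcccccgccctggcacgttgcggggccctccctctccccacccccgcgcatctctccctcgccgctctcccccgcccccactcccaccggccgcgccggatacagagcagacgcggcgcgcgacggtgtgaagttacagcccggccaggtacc
Bcl11b promoter (chr12:108003365-108003664, minus strand): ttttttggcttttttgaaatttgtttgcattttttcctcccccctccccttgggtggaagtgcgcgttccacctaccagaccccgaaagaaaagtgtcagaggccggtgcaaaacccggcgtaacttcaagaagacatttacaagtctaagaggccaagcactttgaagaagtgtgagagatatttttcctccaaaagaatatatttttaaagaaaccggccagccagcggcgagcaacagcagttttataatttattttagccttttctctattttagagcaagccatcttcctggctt
Fezf2 promoter (chr14:12345816-12346115, minus strand): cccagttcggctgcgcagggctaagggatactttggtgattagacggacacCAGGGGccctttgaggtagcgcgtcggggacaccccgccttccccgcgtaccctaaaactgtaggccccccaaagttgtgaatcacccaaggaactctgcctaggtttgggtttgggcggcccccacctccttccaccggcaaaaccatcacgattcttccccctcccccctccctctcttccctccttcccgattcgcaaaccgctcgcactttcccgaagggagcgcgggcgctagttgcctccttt
Cux2 promoter (chr5:122049802-122050101, minus strand): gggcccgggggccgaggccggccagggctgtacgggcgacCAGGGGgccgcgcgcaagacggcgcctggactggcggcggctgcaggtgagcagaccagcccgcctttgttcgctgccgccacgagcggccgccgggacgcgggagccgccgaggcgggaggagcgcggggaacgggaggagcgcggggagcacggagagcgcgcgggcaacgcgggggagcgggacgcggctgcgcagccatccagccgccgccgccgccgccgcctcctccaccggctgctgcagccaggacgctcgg
Neither motif is in the Bcl11a and Bcl11b windows, nor in those of Eomes, Tbr1, Cux1 and Pou3f2 or the other Cux2 start. The Bcl11a window is richer in G and C than the Bcl11b window, 63% against 43%, with 23 and 9 CpG sites, where the median promoter of the table has 52.7% and 7. Whether composition or motifs relate to the changes was not tested, and a match or its lack says nothing here of binding.

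Ldb2 had the largest change of the 9. It was at 15.1, 8.41 and 13.97 CPM in controls 1, 2 and 3, from 465, 259 and 428 counts, and at 2.59, 1.43 and 3.65 CPM in Insm1 libraries 1, 2 and 3, from 80, 44 and 113 counts. The groups lay well apart: the lowest control was 2.30-fold above the highest Insm1 library. The mean fell from 12.5 ± 3.57 to 2.55 ± 1.11 CPM (SD, n = 3). Its log2 fold change was -2.29 (standard error 0.35), with a 95% interval from -3.07 to -1.51 (edgeR adjusted p = 0.0100). Ldb2 ranked 24 by fold change among the 287 genes called lower. The call was kept with 5 of the 6 libraries left out in turn and lost without control 3 (adjusted p = 0.0517), with log2 fold changes from -2.63 to -2.00.

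Ldb2 is also made outside excitatory neurons, for instance in endothelial cells, so the markers of other cells were set beside it. The 6 endothelial markers summed to at most 0.809 CPM in any control and 2.07 CPM in any Insm1 library, and none had enough counts to be tested. The 5 Cajal-Retzius markers summed to 32.6, 4.87 and 32.1 CPM in controls 1, 2 and 3 and to between 7.10 and 8.57 CPM with Insm1, with none of 5 called. The 8 interneuron markers summed to between 10.03 and 19.6 CPM in the controls and between 7.01 and 10.3 CPM with Insm1, with none of 8 called. Log2 fold changes were negative for 5 of 5 Cajal-Retzius and 7 of 8 interneuron markers, with medians of -1.98 and -0.83. The part of any of these cells in the Ldb2 result was not tested.

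**Figure D2:**
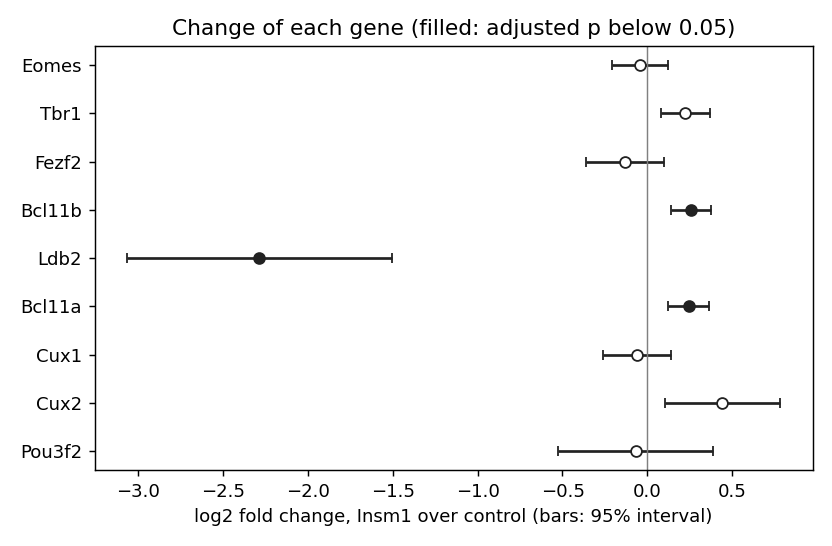
Log2 fold change of each gene, Insm1 over control, with its 95% interval from edgeR's quasi-likelihood fit to 3 libraries a group; filled points have an adjusted p below 0.05. Ldb2 lies at -2.29, and the other 8 genes lie between -0.13 and 0.44.

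The genes of proteins that Ldb2 works with moved both ways. Of 10 genes of the LIM complex 1 rose, 1 fell and 8 did not pass, with a median log2 fold change of -0.066. Lmo3, a LIM-only protein, fell 1.62-fold (edgeR adjusted p = 0.0250), from 78.3, 56.7 and 68.4 CPM in the controls to 37.9, 38.6 and 49.1 CPM. Lhx2, a LIM-homeodomain factor of cortical progenitors, rose 1.27-fold with an adjusted p of 0.0498 in edgeR, just inside the threshold, and was called in 1 of the 6 fits with a library left out. Ldb1, the close relative that shares the bridging role, was at 101, 119 and 106 CPM in the controls and at 134, 122 and 139 CPM with Insm1. For Ldb1 the libraries did not overlap and lay higher with Insm1 (log2 fold change 0.27, edgeR adjusted p = 0.119), without passing the test. Exons of Ldb1 overlap those of Pprc1, and reads of the pair cannot be told apart there without strand.

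The ratio of Ldb2 to Fezf2 counts, both from genes of corticofugal neurons, was 0.0816, 0.0601 and 0.0866 across the controls and 0.0176, 0.00888 and 0.0269 across the Insm1 libraries. The groups did not overlap, and the ratio was 4.66-fold lower with Insm1 (exact permutation test, p = 0.1, the smallest possible, and 0.133 adjusted over 4 ratios). Relative to Fezf2, Ldb2 counts were lower in every Insm1 library than in any control.

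Among 11 other tested genes of deep-layer and corticofugal neurons 1 rose, none fell and 10 did not pass, with a median log2 fold change of -0.0100. The gene that rose was Pcp4, which encodes a calmodulin-binding peptide, from 21.0 ± 1.33 to 38.7 ± 5.91 CPM (SD, n = 3), 1.85-fold (edgeR adjusted p = 0.00875). Its call held with each library left out. Crym, a gene of the same neurons, lay in the direction of Ldb2 and did not pass (edgeR adjusted p = 0.0787). It was at 4.01, 1.07 and 2.38 CPM in the controls and 0.873, 0.357 and 0.420 CPM with Insm1. Sox5, a factor of subplate and layer 6 neurons, was at 244 ± 28.6 and 207 ± 4.27 CPM (SD, n = 3; edgeR adjusted p = 0.164). Crym and Sox5 were chosen after their values were seen, and over this list 5 log2 fold changes were positive and 6 negative.

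Cux1 was at 218, 247 and 201 CPM in controls 1, 2 and 3 and at 213, 194 and 231 CPM in Insm1 libraries 1, 2 and 3. The groups overlapped throughout, with a log2 fold change of -0.062 and a 95% interval from -0.26 to 0.14 (edgeR adjusted p = 0.809). Pou3f2 was at 199.6, 319.8 and 236 CPM in controls 1, 2 and 3 and at 253, 193 and 274 CPM in Insm1 libraries 1, 2 and 3. It varied more within the groups than between them, with a coefficient of variation of 24.4% in the controls and 17.5% with Insm1, and its 95% interval ran from -0.53 to 0.39 (log2 fold change -0.069, edgeR adjusted p = 0.912). As ratios of Insm1 to control, the ends of that interval were 0.694 and 1.31.

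Cux2, which is active from upper-layer progenitors onward, was at 54.9, 83.9 and 66.1 CPM in controls 1, 2 and 3 and at 83.0, 88.4 and 107 CPM in Insm1 libraries 1, 2 and 3. Only control 2 reached the Insm1 range. The means were 68.3 ± 14.6 and 92.8 ± 12.5 CPM (SD, n = 3), and the log2 fold change of 0.44 had a 95% interval from 0.10 to 0.78 (edgeR adjusted p = 0.162). Without control 2 Cux2 was called higher (log2 fold change 0.62, adjusted p = 0.0238), and DESeq2 called it higher on all libraries (adjusted p = 0.0358). The ratio of Cux2 to Cux1 counts was 0.252, 0.340 and 0.329 across the controls and 0.389, 0.457 and 0.464 across the Insm1 libraries. These did not overlap, and the ratio was 1.43-fold higher with Insm1 (exact permutation test, p = 0.1, the smallest possible, and 0.133 adjusted over 4 ratios).

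**Figure D3:**
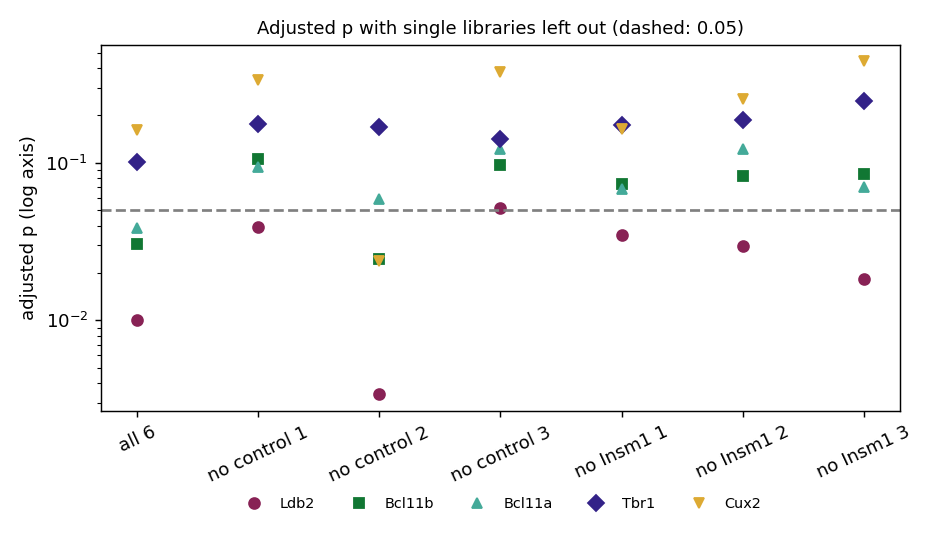
Adjusted p (log axis) of Ldb2, Bcl11b, Bcl11a, Tbr1 and Cux2 in edgeR's quasi-likelihood fit with all 6 libraries and with each library left out; the dashed line is the threshold of 0.05. Ldb2 crosses the line without control 3 (0.0517), Bcl11a lies above it in all 6 of these fits, and Cux2 lies below it without control 2 (0.0238).

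Other genes of upper-layer and callosal neurons moved both ways. Of 11 tested 2 rose, 3 fell and 6 did not pass, with a median log2 fold change of 0.17. Pou3f1, a relative of Pou3f2 in the same POU class, rose 1.73-fold, from 105 ± 20.3 to 181 ± 30.3 CPM (SD, n = 3; edgeR adjusted p = 0.0243). Pou3f3, another relative, was at 285 ± 38.6 and 321 ± 33.6 CPM (SD, n = 3; edgeR adjusted p = 0.459), and whether the POU genes differ in their changes was not tested. The lipoprotein lipase gene Lpl fell 1.74-fold (edgeR adjusted p = 0.0100), the growth factor gene Ptn 1.53-fold (0.0215) and the nuclear receptor gene Rorb, known for layer 4, 1.33-fold (0.0388). With single libraries left out Lpl was called in 5 of 6 fits, Ptn in 3 and Pou3f1 in 1. Apical progenitor markers moved over the same libraries, with 5 of 9 called lower and their sum 1.33-fold lower, and their part in these results was not tested.

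**Figure D4:**
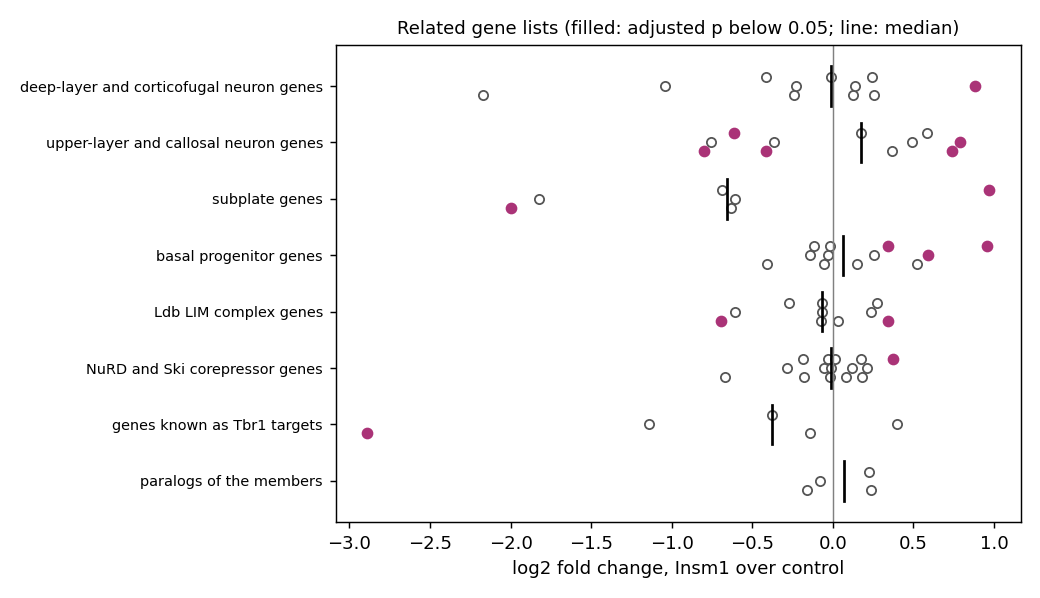
Log2 fold change, Insm1 over control, of each tested gene in 8 lists related to the layer factors; filled points have an adjusted p below 0.05 in edgeR and black lines mark list medians. The lists of deep-layer genes and NuRD genes centre near 0, at -0.0100 and -0.011, and the subplate list lies at -0.66.

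Bcl11a and Bcl11b are known to work with the NuRD remodelling and deacetylase complex. Of 15 genes of NuRD and the corepressor Ski 1 rose, none fell and 14 did not pass, with a median log2 fold change of -0.011. Chd3, a remodelling ATPase of NuRD, rose 1.30-fold, at 404, 397 and 407 CPM in the controls and 523, 535 and 509.9 CPM with Insm1 (edgeR adjusted p = 0.00654), and kept its call in all 6 fits that left a library out. Its relative Chd4 was at 458 ± 42.5 and 517 ± 24.8 CPM (SD, n = 3; edgeR adjusted p = 0.251).

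The levels of the 9 genes were compared per length, as CPM per kb of annotated exon (GENCODE M21, exons of all transcripts merged). In the controls Bcl11b and Eomes led with 100.4 ± 4.52 and 100.1 ± 6.16 CPM per kb (SD, n = 3), and their ranges overlapped. Tbr1 (62.1 ± 4.66), Fezf2 (53.1 ± 7.34), Bcl11a (52.0 ± 0.660) and Pou3f2 (45.1 ± 11.0) followed, and each of these overlapped its neighbour in the order. Below them, Cux1 (11.1 ± 1.16), Cux2 (6.77 ± 1.45) and Ldb2 (3.74 ± 1.07) were separate from each other and from the rest. With Insm1 Bcl11b (119.9 ± 2.96) lay apart above Eomes (96.9 ± 7.92), Bcl11a (61.6 ± 2.99) lay above Fezf2 (48.5 ± 4.06), and Cux1 (10.6 ± 0.925) and Cux2 (9.20 ± 1.24) overlapped. Part of this order depends on the length. Per kb of the longest transcript Bcl11a, at a mean of 114 in the controls, ranked 2, after Eomes at 117 and before Bcl11b at 100.4. On that length Bcl11a lay above Fezf2, at 66.6, without Insm1 too. With Insm1 Bcl11a led per kb of the longest transcript, at a mean of 136, before Bcl11b at 119.9 and Eomes at 113. Ldb2 was last in both groups, at 0.766 ± 0.334 CPM per kb (SD, n = 3) with Insm1.

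**Figure D5:**
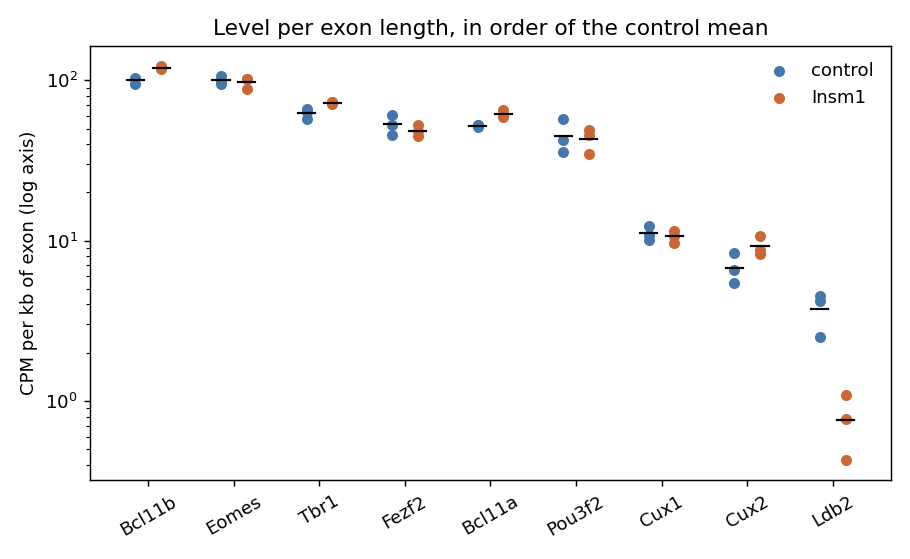
Level of each gene as CPM per kb of exon on a log axis, with 3 control libraries in blue, 3 Insm1 libraries in orange and black lines at the means. The order runs from Bcl11b at 100.4 in the controls to Ldb2 at 3.74, and only Ldb2 is shifted by several-fold between the groups.

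The deposited TPM give another order, because the length they divide by matches the whole gene span, introns included. For 97.2% of 11076 genes with at least 500 counts the length implied by the TPM was within 5% of proportional to the span, and for 4.0% within 5% of proportional to the exon length. Genes with long introns are thus listed low. Bcl11b, whose span of 93200 bases holds 8111 exon bases, had a mean of 77.9 TPM in the controls and rank 5 of 9, and Pou3f2, a single-exon gene of 5587 bases, had 401 TPM and rank 2 of 9. Ldb2, with a span of 327549 bases and 3336 exon bases, had 0.407, 0.224 and 0.389 TPM in controls 1, 2 and 3 and 0.067, 0.037 and 0.095 TPM in Insm1 libraries 1, 2 and 3. On log2(TPM + 1) its log2 fold change was -0.33 and it was not called (limma adjusted p = 0.0831). On log2(TPM + 0.1) it was -1.39, also not called (limma adjusted p = 0.0623). Ldb2 means were 0.340 TPM in the controls and 0.0663 TPM with Insm1, so adding 1 or 0.1 shrinks the log2 fold change by arithmetic. Why Ldb2 was not called on TPM was not tested.

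On GRCm38 the 3 genes that changed are protein-coding genes at chr5:44472132-44799680 on the minus strand (Ldb2), chr11:24078056-24174123 on the plus strand (Bcl11a) and chr12:107910403-108003602 on the minus strand (Bcl11b). Exons of none of the 9 overlap exons of another gene in the table. Of all 75-base windows of annotated transcripts, the read length here, none of Ldb2, Bcl11b, Tbr1, Fezf2, Cux2 and Pou3f2 is shared with another gene, and 1.30% of Bcl11a, 1.08% of Eomes and 1.55% of Cux1 are.

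Calls in both directions took a larger share of long genes than of short ones. Of 842 tested genes that span at least 200 kb 7.48% were called lower and 2.49% higher, against 1.23% and 1.0504% of 3332 genes under 10 kb, with median log2 fold changes of -0.12 and 0.011. Ldb2 and Cux1 are the members in the longest class, with log2 fold changes of -2.29 and -0.062, and Bcl11a and Bcl11b, which rose, are in the class from 50 to 200 kb, where 3.15% were called lower and 1.34% higher. The part of span in the fall of Ldb2 was not tested.

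Genes with the most similar profiles were found by Pearson correlation of log2 CPM over the 6 libraries, among 10490 genes with at least 5 CPM in either group. With so few libraries high values are common, and 12 genes had r above 0.95 with Eomes, 38 with Tbr1 and 89 with Ldb2. Closest to Eomes were Mpv17, B630019K06Rik and Fam213b (r = 0.989, 0.987 and 0.986), closest to Tbr1 were Wrnip1, Ndufs8 and Ndufa8 (r = 0.997, 0.991 and 0.990), and closest to Ldb2 were Zfp423, Ndrg1 and Hspa9 (r = 0.995, 0.993 and 0.989). Of these 9 genes Ndrg1 and Zfp423 were called, both lower. Ndrg1 was at 24.2, 16.5 and 22.7 CPM in the controls and at 6.4, 3.05 and 7.24 CPM with Insm1, 3.79-fold lower (edgeR adjusted p = 0.0102), with control 2 the lowest control, as for Ldb2. Zfp423 fell 1.41-fold (edgeR adjusted p = 0.0263). Both were picked for profiles like that of Ldb2, so a shared direction and order of controls come with the choice.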

How the data were processed

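RNA was measured in 6 libraries, 3 control and 3 Insm1. Per the labels' protocols, poly-dT primed, template-switched cDNA went through 12 PCR cycles, was fragmented by ultrasound and, after 15 more cycles, was sequenced as single 75-base reads. Strand is not marked and there are no molecular identifiers. Per the submitters' processing notes TopHat2 2.0.13, Bowtie and GRCm38 were used. Not given in the sources used here were the counting program, its strand setting and its annotation. The authors deposited whole-number counts per Ensembl gene and TPM values of the same genes, in which the length matches the gene span.

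Genes were kept by filterByExpr (13560 of 22001), scaled by TMM and compared with edgeR 4.0.16 (R 4.3.3), in a robust quasi-likelihood fit to group, two-sided, at a Benjamini-Hochberg adjusted p below 0.05 over all tested genes. CPM are TMM-scaled, values after ± are SDs, standard errors come from the F statistic, and intervals use its t distribution. Ratios of counts were compared by exact permutation. The fit was tested on simulated counts. The members and lists were chosen with earlier results of these data known. Genes were named by rule: the 9 members, Insm1, up to 4 called genes of each list (with none called, the 2 highest), and the 3 closest profiles to Eomes, Tbr1 and Ldb2. Other names were chosen after their values were seen: Crym, Sox5, Pou3f3, Rorb, Ldb1, Chd4, Tubb3 and Neurod6 in the report, and Reln, Nr4a2, Lpar1, Tbx21 and Fezf1 after it. Counts of a list are over its tested genes, and 1 gene that the rule names is not reported here. Alternatives were other scalings, filters, tests (DESeq2 1.42.0, limma 3.58.1), limma on deposited TPM, a replicate block and libraries left out.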

Additional observations from a re-analysis of the deposited data

How the results depend on the processing

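Of the 9 genes 3 were called with all libraries, and also under RLE or upper-quartile scaling, limma-voom, no filter, a filter at 5 CPM and a fit that is not robust. DESeq2 called 5 of them, with Tbr1 and Cux2 added, and limma on log2(TPM + 1) or log2(TPM + 0.1) called 0, where it called 60 and 64 of all genes. With single libraries left out between 0 and 3 of the 9 were called, 0 without control 3, and between 116 and 645 of all genes, against 454 with all libraries. DESeq2 called 1022 of all genes. The labels do not say whether control and Insm1 libraries of the same replicate number shared a litter or session. Correlations of their deviations were 0.027, 0.0016 and -0.072 for numbers 1, 2 and 3, and -0.073 to 0.074 for unlike numbers. With 3 libraries a group these values cannot exclude pairing. With the numbers as a block 1 of the 9, Ldb2, and 331 of all genes were called. Bcl11a and Bcl11b lost their calls in that fit (edgeR adjusted p = 0.108 and 0.0984). The exact paired permutation test gave p = 0.25, 0.75, 0.25 and 0.25 for the member ratios, where 0.25 is the smallest 3 pairs allow. The log2 ratio of Bcl11b to Bcl11a ran from -0.027 to 0.059 with libraries left out, that of Tbr1 to Eomes from 0.22 to 0.33, that of Cux2 to Cux1 from 0.38 to 0.60 and that of Ldb2 to Fezf2 from -2.59 to -1.79. Genes that never passed and changed sign with libraries left out were Eomes (-0.082 to 0.020), Cux1 (-0.12 to 0.023), Pou3f2 (-0.20 to 0.14), Mpv17 (-0.10 to 0.015), B630019K06Rik (-0.27 to 0.068) and Fam213b (-0.12 to 0.034). The lengths, chosen after seeing the data, moved levels relative to Eomes: that of Bcl11a was 0.520 per kb of exon, 0.980 per kb of longest transcript and 0.136 in deposited TPM. The causes of these differences were not tested.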

Other observations

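Genes of the subplate, the transient layer below the cortical plate, were read beside the layer factors. Of 6 tested 1 rose, 1 fell and 4 did not pass. Their median log2 fold change was -0.66 against -0.0086 over all genes, and 5 of the 6 values were negative. Over the same libraries 5 of 9 apical progenitor markers were called lower and 4 did not pass. The part of these markers in the subplate values was not tested. Ctgf, a secreted matrix-associated protein, fell 4.0-fold, from 8.39, 9.48 and 9.47 CPM in controls 1, 2 and 3 to 2.97, 2.82 and 1.03 CPM in Insm1 libraries 1, 2 and 3 (edgeR adjusted p = 0.0150). Nxph4, a neurexin ligand, rose 1.96-fold, from 44.9 ± 5.93 to 88.1 ± 16.2 CPM (SD, n = 3; edgeR adjusted p = 0.00875). The nuclear receptor gene Nr4a2 was at 42.2 ± 1.70 and 27.7 ± 6.99 CPM (SD, n = 3; edgeR adjusted p = 0.0792) and the lysophosphatidic acid receptor gene Lpar1 at 104 ± 13.3 and 66.9 ± 14.47 CPM (SD, n = 3; edgeR adjusted p = 0.0615).

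Of 5 genes known as targets of Tbr1 in mouse cortex 1 fell, none rose and 4 did not pass. Their median log2 fold change was -0.38, against -0.0086 over all tested genes. All 5 span at least 200 kb, the class where 7.48% of tested genes were called lower and the median was -0.12. The part of span in these values was not tested. Grin2b, an NMDA receptor subunit gene, was at 23.0, 10.6 and 18.3 CPM in the controls and at 1.84, 1.69 and 3.46 CPM with Insm1 (7.42-fold lower, edgeR adjusted p = 0.00536). Reln was at 102, 29.4 and 97.6 CPM in controls 1, 2 and 3 and at 42.8, 33.0 and 27.9 CPM in Insm1 libraries 1, 2 and 3, so that control 2 lay among the Insm1 libraries (edgeR adjusted p = 0.364). Of 4 tested relatives of the 9 genes none was called by edgeR. Satb1 was at 193 ± 12.98 and 225 ± 10.9 CPM (SD, n = 3; edgeR adjusted p = 0.126) and Pou6f1 at 96.1 ± 7.26 and 113 ± 12.7 CPM (SD, n = 3; edgeR adjusted p = 0.239). Tbx21, the T-box relative of Eomes and Tbr1, and Fezf1 had too few counts to be tested, at most 0.162 and 0.522 CPM in any library.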
